A study of Mus musculus with 18 samples.

Results

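The 8 genes described here act in the vesicle traffic that carries material across the endothelial wall of cerebral vessels: Mfsd2a, the caveolins Cav1 and Cav2, the cavins Cavin1, Cavin2 and Cavin3, the caveolar ATPase Ehd2, and the diaphragm gene Plvap. They were taken by symbol from a list, and 8 of 8 were found among the 21638 genes measured. Endothelial cells of adult mouse cortex had been sorted as positive for CD31 and negative for CD41 and CD45, and mRNA from small numbers of cells was sequenced 7 days after the operation. The 6 groups held 3 libraries each. Wild-type mice gave 4 of them, after a sham operation or after middle cerebral artery occlusion (MCAO, a surgical model of ischaemic stroke), from the side of the operation (ipsilateral) and from the opposite side (contralateral). The other two groups were ipsilateral cells of occluded mice labelled Hdac2 ECKO or Ezh2 ECKO, an endothelial deletion made with Hdac2lox/lox or Ezh2lox/lox alleles and the tamoxifen-inducible recombinase Cdh5CreERT2. All 18 libraries, wild type included, carry the label of tamoxifen at 75 mg/kg, and the deletion strains are represented by ipsilateral cells after occlusion only. The wild-type mice are not labelled as carrying lox alleles or the recombinase, so the deletion, the strain and the recombinase cannot be told apart.

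The endothelium of the brain differs from that of most organs in moving little material by vesicles. Mfsd2a carries lysophospholipids with docosahexaenoic acid into the brain, and the lipid composition it sets keeps caveolae from forming. Caveolae are flask-shaped pits of the membrane built from caveolins, coated by cavins and held at the surface by Ehd2, and Plvap forms the diaphragms of fenestrae and of some caveolae, structures that mature barrier endothelium mostly lacks.

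Totals ran from 25791401 to 57576255 counts per library. Levels are given as CPM, a gene's count scaled to the same effective library size everywhere. That size is the library total multiplied by its TMM factor from edgeR, so CPM are not shares of the totals above. Differences are given as log2 fold changes with their standard error (SE). Of 12 endothelial markers, 12 were found and none was at 0 in any library. Their summed level lay between 16020 and 17077 CPM in sham ipsilateral and between 20632 and 29907 in MCAO ipsilateral. For the deletion labels it lay between 16158 and 19288 CPM (Hdac2 ECKO) and between 12932 and 15749 (Ezh2 ECKO). Most of that difference lay in 1 marker: the mean of Ly6c1 was 14514 CPM in MCAO ipsilateral, 7686 under the Hdac2 ECKO label and 3550 under the Ezh2 ECKO label. Without Ly6c1 the sum lay between 10862 and 12185 CPM in MCAO ipsilateral, between 9956 and 10862 for Hdac2 ECKO and between 10138 and 11437 for Ezh2 ECKO. Against MCAO ipsilateral, the means of 6 of the 12 markers were higher under either deletion label (Cdh5, Erg, Flt1, Kdr, Slco1a4 and Tek) and those of the other 6 were lower. At the level of the whole gene, no fall of the gene named by the label passed the test, and Ezh2 stood higher, not lower. Under the Hdac2 ECKO label, Hdac2 stood at 76.8 ± 16.8 CPM (SD, n = 3), and it stood at 82.9 ± 14.0 in MCAO ipsilateral (log2 −0.11 ± 0.32, edgeR adjusted p = 0.925, with a sign that turned under 2 alternatives). Under the Ezh2 ECKO label, Ezh2 stood at 13.4 ± 5.76 CPM, and it stood at 6.44 ± 1.77 in MCAO ipsilateral (log2 1.05 ± 0.86, edgeR adjusted p = 0.485). The libraries ran from 8.41 to 19.7 CPM under the label and from 4.45 to 7.85 in MCAO ipsilateral. The deleted exons were not measured separately, so directions below are those of the libraries labelled so. The labels do not say that the 3 libraries of a group came from separate mice, and p-values measure the spread between these libraries, which may be technical. In sorted bulk samples, fewer cells of a type and less RNA per cell cannot be told apart.

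The 250 bases before the annotated start of 3 genes are shown. Cav1 and Cav2 are neighbours whose values lay on opposite sides of MCAO ipsilateral in the libraries labelled Ezh2 ECKO, and Mfsd2a is the gene that another count test, DESeq2, called between the deletion labels. They were read from RefSeq for GRCm38.p6, 5′ to 3′ on the strand of the gene. The capitals mark GGGCGG or its reverse complement CCGCCC, a GC box.

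Cav1 (chr6:17306085-17306334, plus strand): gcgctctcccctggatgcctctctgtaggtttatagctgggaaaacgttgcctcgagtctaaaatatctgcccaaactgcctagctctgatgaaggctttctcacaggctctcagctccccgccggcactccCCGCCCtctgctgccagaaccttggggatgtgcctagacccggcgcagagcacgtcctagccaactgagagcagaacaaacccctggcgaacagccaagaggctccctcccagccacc
Cav2 (chr6:17280935-17281184, plus strand): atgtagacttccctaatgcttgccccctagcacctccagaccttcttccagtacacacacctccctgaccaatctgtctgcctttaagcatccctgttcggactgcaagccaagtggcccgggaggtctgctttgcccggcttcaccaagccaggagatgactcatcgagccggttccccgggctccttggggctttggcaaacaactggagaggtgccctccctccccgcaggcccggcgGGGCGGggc
Mfsd2a (chr4:122961189-122961438, minus strand): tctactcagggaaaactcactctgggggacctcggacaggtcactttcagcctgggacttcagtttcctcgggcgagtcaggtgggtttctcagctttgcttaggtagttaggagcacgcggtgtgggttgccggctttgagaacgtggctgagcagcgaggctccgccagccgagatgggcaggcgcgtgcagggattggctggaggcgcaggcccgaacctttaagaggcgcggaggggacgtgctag

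The Cav1 and Cav2 windows each held 1 GC box and the Mfsd2a window held 0, while 32.7% of the 32851 promoter windows in the RefSeq table held at least 1 on either strand. CCAAT (or ATTGG) was found 1 time each in the Cav2 and Mfsd2a windows and not in that of Cav1, against 33.8% of all windows. TATAAA (or TTTATA) was found 1 time in the Cav1 window and not in the others, against 12.4%. The motifs share no letters by overlap in these windows, and a match is a description of the letters and no more. RefSeq promoter entries were matched for 6 of the 8 genes, and of the 2 starts given for Cav1 the upstream one is shown. Cav2 and Cav1 lie on the plus strand of chromosome 6, with 17219 bases between the end of the first (17281185 to 17289115) and the start of the second (17306335 to 17341452). Mfsd2a lies on the minus strand of chromosome 4 (122946850 to 122961188). Of the others, Cavin2 lies on the plus strand of chromosome 1 (51289126 to 51302960), and the rest on minus strands: Ehd2 and Cavin3 on chromosome 7 (15946958 to 15967567 and 105480083 to 105482300), Plvap on chromosome 8 (71497765 to 71511752) and Cavin1 on chromosome 11 (100956733 to 100970887).

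The order of levels, per kilobase of feature length, put the caveolins first and Plvap last. Averaged over 18 libraries, Cav2 stood at 318 CPM per kb, Cav1 at 172, Cavin2 at 119, Cavin3 at 62.7, Mfsd2a at 60.7, Cavin1 at 45.9, Ehd2 at 4.52 and Plvap at 1.27. Cav2 was above Cav1 in 17 of 18 libraries, Cav1 above Cavin2 in 15 and Cavin2 above Cavin3 in 16. Cavin3 and Mfsd2a could not be ordered, since Cavin3 was the higher one in 9 of 18 libraries. Mfsd2a was above Cavin1 in 14 of 18, Cavin1 above Ehd2 in 18 of 18 and Ehd2 above Plvap in 17 of 18. The genes also differed in how far their level moved between libraries: Cavin2 varied least, by 2.39-fold between the lowest and the highest library, and Plvap most, by 97.5-fold from 0.13 to 12.9 CPM.

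**Figure D1:**
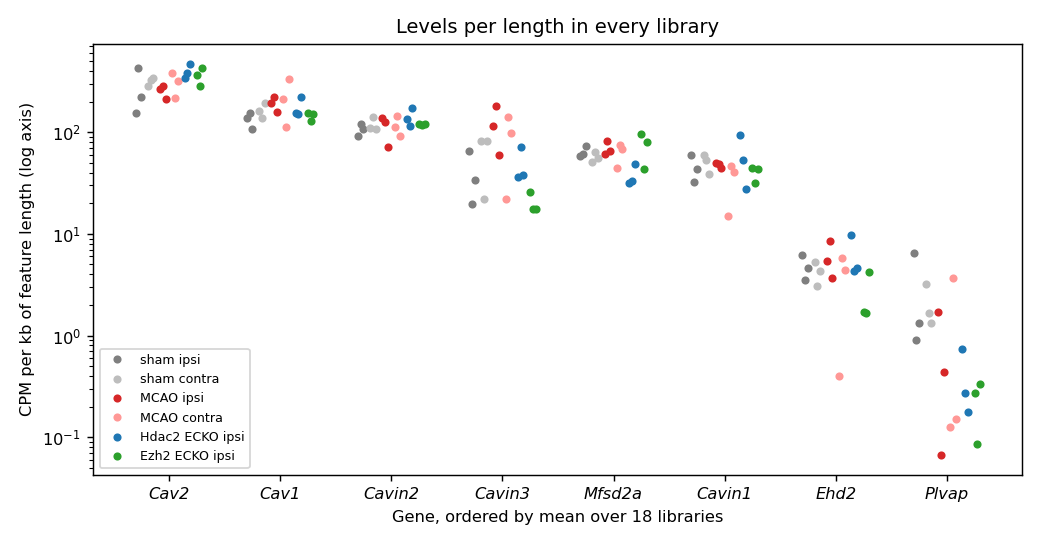
Level of each gene per kilobase of feature length (CPM per kb, log axis) in 18 libraries, 1 point per library, coloured by group and with genes ordered by their mean. Cav2 and Cav1 lie highest, Cavin3 spreads across the range of Mfsd2a and Cavin1, and Ehd2 and Plvap lie below the other genes in nearly every library.

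One call was made in 9 comparisons: Cavin3 fell in the libraries labelled Ezh2 ECKO against MCAO ipsilateral. That comparison called 1 of the 8 genes, against 1.46% of the 17094 genes tested in either direction and 1.23% lower. In MCAO against sham, edgeR called 0 of the 8 genes ipsilaterally (0% of all genes called) and 0 contralaterally (0%), and DESeq2 called 0 on both sides. Over both sides together it called 0 of 8, against 0.152% of all genes. It also called 0 of 8 between the sides of occluded mice (0%), between the sides of sham mice (0%) and for the difference between these side differences (0%), with DESeq2 calling 0 in all 4 of these comparisons. The libraries labelled Hdac2 ECKO gave 0 of 8 against MCAO ipsilateral (0.0117% of all genes) in edgeR and 0 in DESeq2, and 0 of 8 against those labelled Ezh2 ECKO (0.123%) in edgeR and 1, Mfsd2a, in DESeq2, which called 3.86% of all genes there. At an unadjusted p under 0.05 in edgeR, MCAO against sham gave 1 gene ipsilaterally (7.08% of all genes), 0 contralaterally (4.41%) and 1 over both sides (9.09%). Both comparisons of sides gave 0 (3.08% in occluded and 1.85% in sham mice), as did the difference between them (3.38%). The libraries labelled Hdac2 ECKO gave 2 against MCAO ipsilateral (9.85%), those labelled Ezh2 ECKO gave 1 (19.2%), and the deletion labels gave 2 between them (11.2%).

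Mfsd2a, the lysophospholipid carrier, was lowest on average in the libraries labelled Hdac2 ECKO. Its level was 131, 137 and 165 CPM in sham ipsilateral and 138, 185 and 146 in MCAO ipsilateral. On the contralateral side it was 113.5, 144 and 126 CPM in sham and 99.3, 167 and 155 in MCAO. Under the Hdac2 ECKO label it was 71.6, 75.2 and 109.7 CPM, and under the Ezh2 ECKO label 217, 97.8 and 180.1. All 3 libraries labelled Hdac2 ECKO lay below all 3 of MCAO ipsilateral, and those of sham and MCAO overlapped on either side. The log2 fold change from MCAO ipsilateral to Hdac2 ECKO was −0.87 ± 0.32, which did not pass the test (edgeR adjusted p = 0.426). Groups were separated in this way for 2 of the 8 genes in this comparison, Mfsd2a below and Cav2 above, as they were for 19.9% of all genes. Between the deletion labels, Mfsd2a differed by −0.95 ± 0.32 on the log2 scale (Hdac2 ECKO minus Ezh2 ECKO, edgeR adjusted p = 0.266), and 1 library labelled Ezh2 ECKO lay within the range of the others. That difference passed the test in DESeq2 (−1.01, adjusted p = 0.0323). It also passed in edgeR without the pair of libraries of highest background described below (−1.21, adjusted p = 0.0348), an alternative chosen after the data were seen. These fits called 3.86% and 0.735% of all genes, against 0.123% in edgeR with all libraries. The pair left out includes Ezh2 ECKO replicate 2, at 97.8 CPM, the library that lay within the Hdac2 ECKO range. Its removal widens the difference, so that fit is no separate check.

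Among the 7814 genes whose mean reached 10 CPM, those most like Mfsd2a across the 18 libraries were Oma1 (Pearson r = 0.828 of log2 CPM), Tmem87a (0.807) and Ppp2r5c (0.779). These libraries share groups, depth and base composition, and such values describe the table only.

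Cav1 encodes caveolin-1, which is required for caveolae to form in endothelium. Its level was 478, 533 and 367 CPM in sham ipsilateral and 661, 768 and 549 in MCAO ipsilateral. It was 561, 476 and 671 CPM in sham contralateral and 737, 385 and 1159.7 in MCAO contralateral. The ipsilateral groups did not overlap, with MCAO higher, and the MCAO contralateral libraries reached below and above the range of sham contralateral. The ipsilateral log2 fold change of MCAO against sham was 0.52 ± 0.34 (edgeR adjusted p = 0.754), and Cav1 was the 1 gene of the 8 whose groups did not overlap, as was the case for 27.7% of all genes. Contralaterally the change was 0.42 ± 0.34 (edgeR adjusted p = 0.920), where 0 of the 8 genes had groups that did not overlap (9.65% of all genes). Without the highest MCAO contralateral library, replicate 3, it was −0.02. Over both sides it was 0.47 ± 0.24 (edgeR adjusted p = 0.580), with 0 of the 8 genes in groups that did not overlap, against 1.42% of all genes. Under the Ezh2 ECKO label, Cav1 was at 536, 443 and 523 CPM, all below MCAO ipsilateral, with a log2 fold change of −0.40 ± 0.34 (edgeR adjusted p = 0.499). In those labelled Hdac2 ECKO it was 534, 518 and 762 CPM, within the range of MCAO ipsilateral for the highest library and below it for the others. Most like Cav1 across libraries were Tor1aip2 (r = 0.827), Ppa1 (0.822) and Gm12185 (0.810).

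Cav2 encodes caveolin-2, which forms hetero-oligomers with caveolin-1. It was 519, 1429 and 740.4 CPM in sham ipsilateral and 891, 937 and 699 in MCAO ipsilateral. On the contralateral side it was 958, 1098 and 1142 CPM in sham and 1274, 717 and 1060.5 in MCAO. The 3 sham ipsilateral libraries spanned more than the range of MCAO ipsilateral, and no difference between sham and MCAO could be seen within that spread. Under the Hdac2 ECKO label Cav2 was 1147, 1282 and 1575 CPM, and under the Ezh2 ECKO label 1216, 952 and 1438. Both sets lay above all of MCAO ipsilateral. The log2 fold change from MCAO ipsilateral was 0.66 ± 0.34 for Hdac2 ECKO (edgeR adjusted p = 0.541) and 0.51 ± 0.34 for Ezh2 ECKO (edgeR adjusted p = 0.397), against medians over all genes of 0.11 and 0.17. Both comparisons use the same 3 MCAO ipsilateral libraries. The GC content of Cav2 is 37.5%, in the fifth of genes with the lowest GC content, whose median log2 fold changes were 0.69 for Hdac2 ECKO and 1.28 for Ezh2 ECKO. Across the 18 libraries its level had a correlation of −0.691 with the GC trend of the library, described below. The part of base composition in the values of Cav2 was not tested.

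The ratio of Cav1 to Cav2, taken per kilobase within each library, was 0.757 ± 0.0377 (SD, n = 3) in MCAO ipsilateral, with libraries from 0.718 to 0.794. It was 0.577 ± 0.278 in sham ipsilateral and 0.519 ± 0.0852 in sham contralateral, and 0.713 in MCAO contralateral, with libraries from 0.519 to 1.06. The ratio was 0.437 ± 0.0406 under the Hdac2 ECKO label and 0.410 ± 0.0516 under the Ezh2 ECKO label. The highest of these 6 libraries, at 0.469, was below the lowest of MCAO ipsilateral, while 1 sham ipsilateral library, at 0.891, lay above all of MCAO ipsilateral. This ratio was chosen after the values were seen and carries no test. The GC content is 42.6% for Cav1 and 37.5% for Cav2. In Ezh2 ECKO against MCAO ipsilateral, the median log2 fold change was 1.28 for genes of 30.9% to 42.2% GC, where Cav2 lies. It was 0.46 for genes of 42.2% to 46.5% GC, where Cav1 lies. For Hdac2 ECKO against MCAO ipsilateral these medians were 0.69 and 0.26. The part of base composition in the ratio was not tested.

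**Figure D2:**
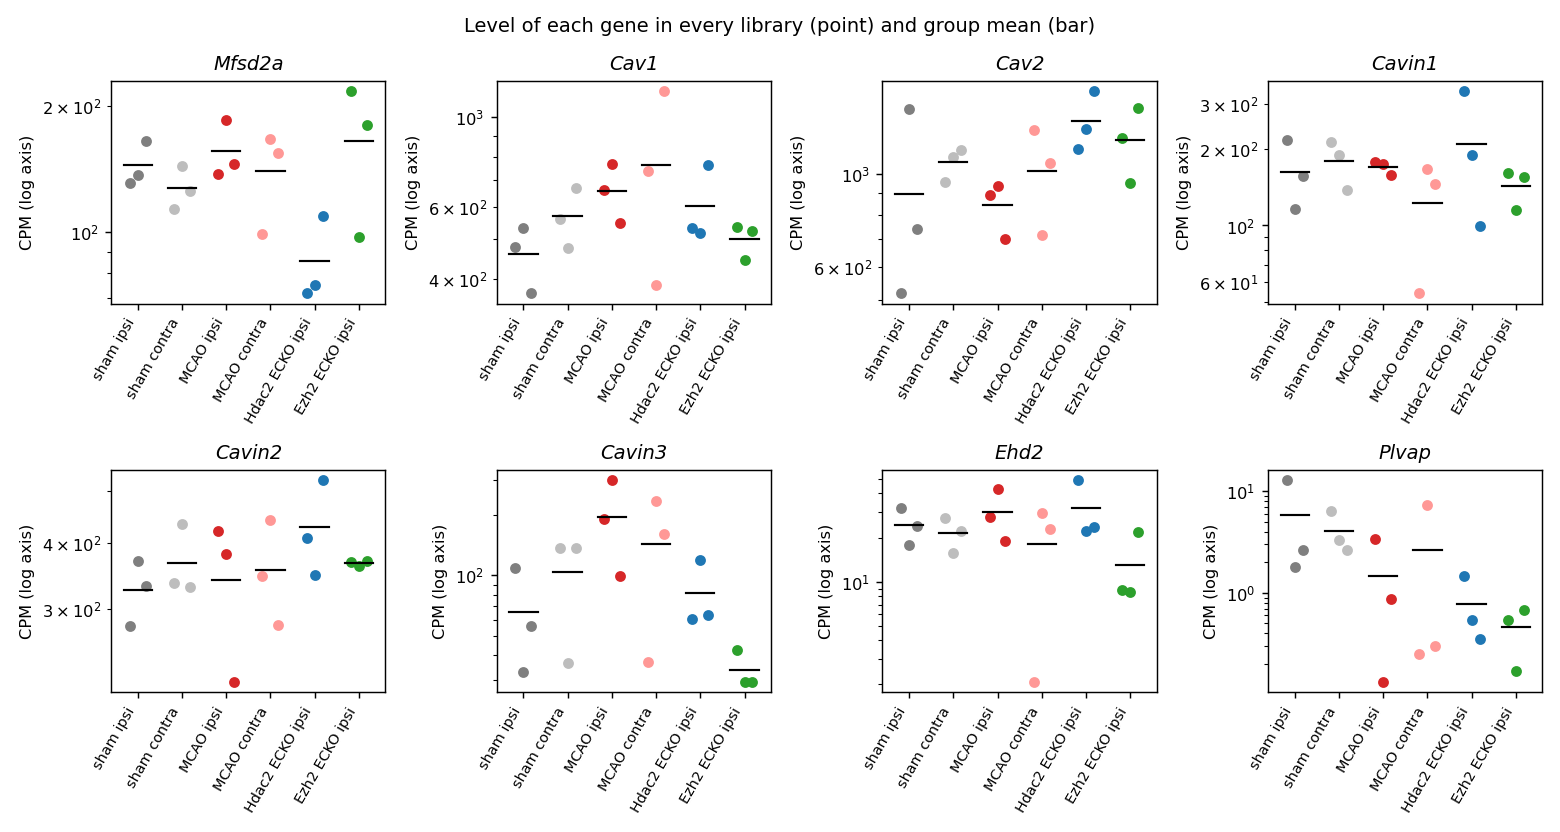
Level of each of the 8 genes (CPM, log axes that differ between panels) in the 6 groups, with 1 point per library and a bar at the mean of 3 libraries. Cavin3 lies lowest in the 3 libraries labelled Ezh2 ECKO, at 29.3 to 42.6 CPM, and Mfsd2a is lowest on average in those labelled Hdac2 ECKO, at 71.6 to 109.7 CPM.

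The 3 cavins are coat proteins of caveolae. Across the 18 libraries Cavin1 had a correlation of 0.349 with Cavin3 (0.525 with group means removed). Cavin2 had a correlation of −0.0405 with Cavin1 and −0.120 with Cavin3 (−0.134 and −0.0562 with group means removed). Cavin3 binds Cavin1 in the coat. Its level was 108.6, 32.8 and 55.9 CPM in sham ipsilateral and 190.4, 299.6 and 99.4 in MCAO ipsilateral. It was 137, 36.4 and 137 CPM in sham contralateral and 36.9, 234 and 162 in MCAO contralateral. The ipsilateral groups overlapped only by the lowest MCAO and the highest sham library, and the contralateral groups overlapped, with 2 MCAO libraries above all of sham. Its ipsilateral log2 fold change of MCAO against sham was 1.58 ± 0.59 (edgeR adjusted p = 0.630). Contralaterally it was 0.48 ± 0.58 (edgeR adjusted p = 0.929), and −0.05 without MCAO contralateral replicate 2. Over both sides it was 1.03 ± 0.41 (edgeR adjusted p = 0.421), and the difference between the side differences was 1.10 ± 0.82 (edgeR adjusted p = 0.941). None of these passed the test.

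Under the Ezh2 ECKO label, Cavin3 was at 42.6, 29.4 and 29.3 CPM. All 3 lay below the lowest MCAO ipsilateral library. The mean was 33.8 ± 7.64 CPM (SD, n = 3) against 196 ± 100.2, a fall of 5.82-fold (log2 −2.54 ± 0.61, edgeR adjusted p = 0.0434). Groups did not overlap for 3 of the 8 genes in this comparison, Cavin3 and Cav1 below and Cav2 above, against 29.0% of all genes. Under the Hdac2 ECKO label, Cavin3 was 60.5, 119.8 and 63.4 CPM, 2 of them below MCAO ipsilateral, with a log2 fold change of −1.27 ± 0.59 (edgeR adjusted p = 0.496). All 3 also lay above those labelled Ezh2 ECKO (log2 1.27 ± 0.59, edgeR adjusted p = 0.426). Cavin3 and Ehd2 were the 2 of 8 genes whose groups did not overlap between the deletion labels, as did not those of 12.1% of all genes.

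The direction of the Cavin3 fall was the same under 15 of 15 alternatives, from −2.90 to −1.49 on the log2 scale, and 7 of 15 kept the adjusted p under 0.05, in a range from 0.00310 to 0.234. The share of all genes called also moved with the setting, from 0.0293% without MCAO ipsilateral replicate 1 to 9.61% in DESeq2. The 6 libraries of the compared groups were left out in turn. The call was lost without any single one of them except MCAO ipsilateral replicate 3, at adjusted p = 0.105 and 0.232 without MCAO ipsilateral replicates 1 and 2, and at 0.0627, 0.112 and 0.141 without Ezh2 ECKO replicates 1, 2 and 3 (edgeR).

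**Figure D3:**
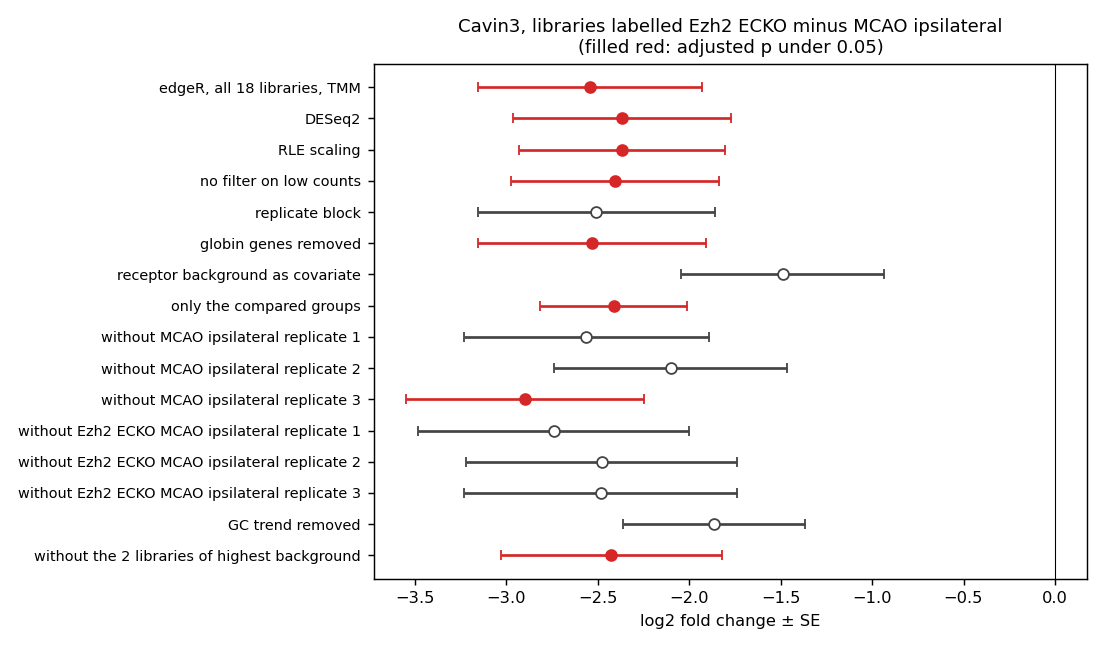
Log2 fold change of Cavin3 in libraries labelled Ezh2 ECKO against MCAO ipsilateral, with its SE, for the test reported and 15 alternatives, filled red where the adjusted p was under 0.05. All points lie below 0, from −2.90 to −1.49, and 7 of the 15 alternatives are filled.

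Several properties of the libraries moved with Cavin3. Reads on 1464 olfactory and vomeronasal receptor genes, which are expressed by sensory neurons of the nose, served as a measure of diffuse background and ran from 152 to 2077 CPM per library. Cavin3 was lower where this background was higher (Pearson r = −0.751, Spearman rho = −0.806 with log2 background, n = 18 libraries, given as a description). The background was 230.4 ± 71.7 CPM (SD, n = 3) in MCAO ipsilateral and 981 ± 963 under the Ezh2 ECKO label, of which replicate 2 and MCAO contralateral replicate 1, at 1883 CPM, were the highest of all. With background as a covariate the log2 fold change of Cavin3 was −1.49 (edgeR adjusted p = 0.234), in a fit that called 0.0761% of all genes. Without the pair of highest libraries the call was kept (edgeR adjusted p = 0.0278), in a fit that called 6.39% of all genes, against 1.46% with all libraries. The summed endothelial markers had a correlation of 0.924 with Cavin3 (n = 18), and of 0.517 with Ly6c1 left out of the sum. Single markers went both ways, from 0.905 for Ly6c1 to −0.782 for Tek. Red cell RNA differed as well. Of 5 red cell markers 5 were found, and their sum was 38267 to 65445 CPM in MCAO ipsilateral, 70.1 to 671 under the Ezh2 ECKO label and 49294 to 297849 under the Hdac2 ECKO label, with a correlation of 0.595 with Cavin3. With the globin genes removed, the change of Cavin3 was −2.53 (edgeR adjusted p = 0.0492). GC content moved with it as well. The rank correlation across genes between a gene's GC content and its deviation in a library lay between 0.294 and 0.375 in MCAO ipsilateral and between −0.394 and −0.0672 under the Ezh2 ECKO label. Cavin3 has a GC content of 56.4%, and its level had a correlation of 0.859 with this GC trend across the 18 libraries. In Ezh2 ECKO against MCAO ipsilateral the median log2 fold change of all genes was 1.28 in the fifth of lowest GC content and −0.66 in the fifth of highest, where 3.01% of genes were called lower and 0% higher. With the trend removed, Cavin3 changed by −1.86 (edgeR adjusted p = 0.0713). The part of background, the endothelial marker sum, red cell RNA and base composition in the fall of Cavin3 was not tested beyond these values.

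**Figure D4:**
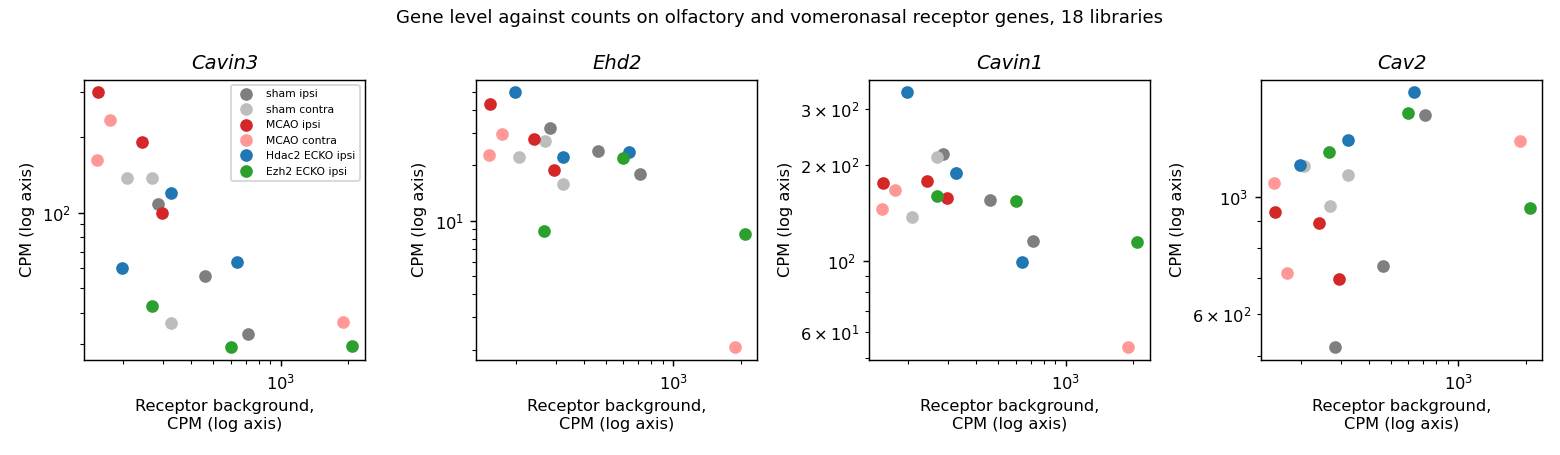
Level of Cavin3, Ehd2, Cavin1 and Cav2 (CPM, log axis) against the summed level of 1464 receptor genes (CPM, log axis), 1 point per library, coloured by group. Cavin3 and Ehd2 are lower in libraries of higher background (r = −0.751 and −0.735), and Cav2 has no such slope (r = 0.317).

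Cavin1, without which caveolae do not form, and Cavin2, which shapes them, gave no difference that passed the test. Cavin1 ran from 54.1 to 337 CPM over the 18 libraries, with its lowest value in MCAO contralateral replicate 1, the library of high background, and its highest in a library labelled Hdac2 ECKO. The other libraries of those 2 groups overlapped the rest. Cavin2 ran from 219 to 524 CPM with a median of 364. Its 3 libraries labelled Ezh2 ECKO were close together, at 366 ± 4.00 CPM (SD, n = 3), and lay inside the range of MCAO ipsilateral (219 to 421 CPM).

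Ehd2, the ATPase that holds caveolae at the membrane, was low and varied widely. Its level was 31.6, 17.9 and 23.9 CPM in sham ipsilateral and 27.7, 43.1 and 18.9 in MCAO ipsilateral. On the contralateral side it was 27.0, 15.8 and 22.0 CPM in sham and 2.07, 29.5 and 22.8 in MCAO. Under the Hdac2 ECKO label it was 49.5, 22.2 and 23.5 CPM, and under the Ezh2 ECKO label 8.79, 8.48 and 21.7. Of the last, 2 were below every wild-type library but MCAO contralateral replicate 1, and the third lay within the range of MCAO ipsilateral. The log2 fold change for Ezh2 ECKO against MCAO ipsilateral was −1.20 ± 0.65 (edgeR adjusted p = 0.310), and it turned to 0.19 with receptor background as a covariate. Ehd2 had a correlation of −0.735 with log2 background. Between the deletion labels it was higher in all 3 libraries of Hdac2 ECKO (log2 1.29 ± 0.65, edgeR adjusted p = 0.474). Of the 28 pairs of the 8 genes, Cavin1 and Ehd2 had the highest correlation across libraries (r = 0.793, and 0.774 with group means removed, n = 18). Both were lower at higher background, Cavin1 at r = −0.710, with Spearman rho of −0.507 for Cavin1 and −0.643 for Ehd2. With the GC trend of the library, Cavin1 had a correlation of 0.595 and Ehd2 of 0.634. Both genes were lowest in MCAO contralateral replicate 1 and highest in Hdac2 ECKO replicate 1. The part of background, base composition and these libraries in the correlation of Cavin1 with Ehd2 was not tested.

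Plvap, the diaphragm protein of fenestrae, was near the limit of detection in part of the libraries. Its level was 12.9, 1.81 and 2.62 CPM in sham ipsilateral and 3.37, 0.13 and 0.86 in MCAO ipsilateral. On the contralateral side it was 6.34, 3.30 and 2.64 CPM in sham and 0.25, 7.32 and 0.30 in MCAO. Under the Hdac2 ECKO label it was 1.45, 0.54 and 0.35 CPM, and under the Ezh2 ECKO label 0.54, 0.17 and 0.67. Sham libraries were the higher ones as a set, with 1 MCAO library on each side within or above their range. The lowest values rested on 6 counts. Scaled by the library totals without the TMM factor, 3 counts stand for 0.0521 to 0.116 CPM. The log2 fold change of MCAO against sham was −1.99 ± 1.27 ipsilaterally (edgeR adjusted p = 0.752) and −1.31 ± 0.88 over both sides (edgeR adjusted p = 0.721). For Ezh2 ECKO against MCAO ipsilateral it was −1.65 ± 1.27 (edgeR adjusted p = 0.455).

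RNA of some other cell types moved with Plvap. Of 10 pericyte and smooth muscle markers 10 were found, with at most 3 at 0 in a library. Their summed level was 104 to 162 CPM ipsilaterally and 99.7 to 198 contralaterally in sham, and 38.1 to 103 and 14.6 to 66.9 in MCAO. For the deletion labels it was 20.6 to 69.3 CPM (Hdac2 ECKO) and 26.7 to 168 (Ezh2 ECKO), and its correlation with Plvap was 0.647 (n = 18). In Ezh2 ECKO replicate 3, with the sum at 168 CPM, Plvap was at 0.67 CPM. Marker sums of the remaining cell types had correlations with Plvap from −0.293 (neuron) to 0.452 (astrocyte), with 0.396 for red cells. The genes most like Plvap were Acta2 (r = 0.742), Myl9 (0.735) and Sema3g (0.726). Acta2 is itself among the 10 pericyte and smooth muscle markers, and Myl9 and Sema3g are in none of the marker lists. Of 5 markers of choroid plexus epithelium, whose vessels are fenestrated, 5 were found, with at most 2 at 0 in a library, and their sum had a correlation of 0.351 with Plvap (n = 18). It reached 275 CPM in MCAO ipsilateral replicate 1 and 451 in MCAO contralateral replicate 2, the libraries of highest Plvap in their groups. It was 2.15 CPM in sham ipsilateral replicate 1, the library of highest Plvap of all, and 118 in Hdac2 ECKO replicate 2, where Plvap was at 0.54 CPM. The part of pericytes, smooth muscle and choroid plexus, with its fenestrated vessels, in the level of Plvap was not tested. Gtpbp3 overlaps Plvap on the opposite strand, and the strand setting of the counting is not given in the sources used here, so reads of the overlap may count for either. Gm15581 overlaps Cav1 and Cav2, 9330175M20Rik overlaps Cavin2 and Gm45667 overlaps Cavin3, each on the other strand. Of these overlapping genes, only Gtpbp3 was among the genes measured.

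**Figure D5:**
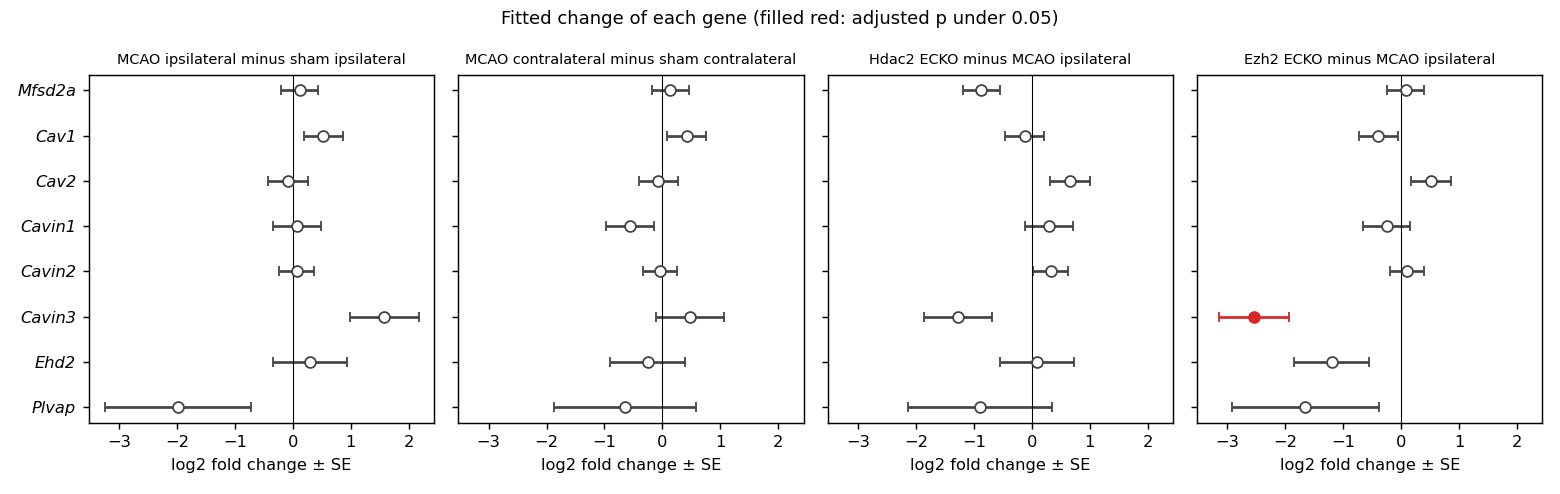
Log2 fold change of each gene with its SE in 4 comparisons, filled red where the edgeR adjusted p was under 0.05. The 1 filled point is Cavin3 in libraries labelled Ezh2 ECKO (−2.54 ± 0.61), and the bars of Plvap are the widest in every panel.

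As a set, the 8 genes had a median log2 fold change opposite in sign to that of all genes in every comparison but 1, a difference that was not tested. For MCAO against sham the median of the 8 genes was 0.09 ipsilaterally (all genes −0.09) and −0.05 contralaterally (all genes 0.17). Over both sides, the exception, it was 0.01 (all genes 0.06). It was 0.05 for the sides of occluded mice (all genes −0.05) and −0.16 for those of sham mice (all genes 0.07). For the difference between these side differences it was 0.10 (all genes −0.08). Against MCAO ipsilateral it was −0.02 for Hdac2 ECKO (all genes 0.11) and −0.32 for Ezh2 ECKO (all genes 0.17), and it was 0.41 between the deletion labels (all genes −0.15). Groups did not overlap for 0 of the 8 genes between the sides of occluded mice (5.37% of all genes) and for 0 between the sides of sham mice (15.4%).

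The wider vesicle pathway was read from 61 genes in 5 lists: caveolar coat partners, clathrin vesicle genes, transcytosis receptors, vesicle docking and fusion genes, and lipid carriers of the barrier. Of these, 59 were tested, and edgeR called 0 in every comparison but that of Ezh2 ECKO with MCAO ipsilateral, where 2 fell and 0 rose. Of all genes, edgeR called 1.23% lower and 1.46% in either direction there. DESeq2 called 10 there, 7 lower and 3 higher (9.61% of all genes in either direction), called 2 higher in MCAO against sham over both sides (Flot1 and Snap23, named after their values were seen, with 1.97% of all genes called in either direction), and called 0 in the other comparisons. Unadjusted p-values under 0.05 in edgeR were found, higher and lower, for 10 and 1 of the 59 in MCAO against sham ipsilaterally (7.08% of all genes in either direction), 1 and 0 contralaterally (4.41%) and 6 and 1 over both sides (9.09%). They were found for 1 and 8 in Hdac2 ECKO against MCAO (9.85%), 4 and 15 in Ezh2 ECKO against MCAO (19.2%), 4 and 1 between the deletion labels (11.2%), and 0 in the comparisons of sides and the difference between them. Both genes that fell belong to the clathrin list of 13. Ap2s1, the small subunit of the AP-2 adaptor that links clathrin to cargo, was 119.8, 168 and 110.2 CPM in MCAO ipsilateral and 31.4, 24.5 and 20.8 under the Ezh2 ECKO label (log2 −2.37 ± 0.51, edgeR adjusted p = 0.0315). Cltb, a clathrin light chain, was 152, 174 and 92.0 CPM against 34.6, 17.9 and 43.1 (log2 −2.13 ± 0.49, edgeR adjusted p = 0.0379). Neither gene's groups overlapped, as was the case for 24 of the 59 genes and for 29.0% of all genes. Both calls, like that of Cavin3, were lost in several settings, among them with the GC trend removed and with the background covariate. Ap2s1 lost its call without any 1 of 4 of the 6 libraries, and Cltb without any 1 of 5. Medians over the lists in that comparison were −0.69 for caveolar coat partners (12 tested, 1 higher and 11 lower, where 44.6% of all genes were lower), −0.13 for clathrin genes, −0.07 for transcytosis receptors, −0.42 for docking and fusion genes and −0.08 for lipid carriers, beside 0.17 for all genes.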

How the data were processed

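The members, gene lists and tests were chosen with earlier results of these data known. The authors deposited 1 table of counts per gene. Its name calls the values normalized, but they are whole numbers with unequal totals and were treated as raw counts. Per the submitters' processing notes, FastQC, cutadapt, STAR, featureCounts, DESeq2 and build mm10 were used, with no versions, and the strand setting is not given in the sources used here. The other deposited column used was feature length. A total of 0 columns lacked a sample. Coordinates follow the file and GENCODE M21 (GRCm38), counted from 1.

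Counts were tested with edgeR 4.0.16 (R 4.3.3), with TMM factors and its quasi-likelihood F-test, as 1 fit of 6 group means to 18 libraries. A gene was tested where 3 or more libraries had 10 or more counts (17094 genes, all 8 members among them). P-values were adjusted by Benjamini-Hochberg over these genes, and an adjusted p under 0.05 was the threshold for a call. The SE is the log2 fold change divided by the square root of F. The common biological coefficient of variation was 0.774. The test was tried on simulated data. Correlations use log2(CPM + 0.5). Named genes are the members, Hdac2 and Ezh2, called genes of each list (up to 3 a comparison), and the 3 genes most like Mfsd2a, Cav1 and Plvap. Floors of 3 counts cover counting error only. Of the counts from 1 to 20, 77.3% to 89.4% per library were even, so counts are not independent molecules and these floors are lower than the true limit. Alternatives were DESeq2 1.42.0, RLE factors, no filter, only the compared groups, a replicate block, globin genes removed, background as a covariate, each library of the compared groups left out, and, added after the data were seen, the GC trend removed and the pair of highest-background libraries left out.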

Additional observations from a re-analysis of the deposited data

How the results depend on the processing

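The number of the 8 genes called kept its value in 134 of 144 combinations of comparison and setting. In Ezh2 ECKO against MCAO ipsilateral, it went from 1 to 0 with a replicate block (Cavin3 −2.51, adjusted p = 0.0736), with the GC trend removed and with background as a covariate, and was 0 to 1 with single libraries left out (Cavin3 −2.90 to −2.10). Between the deletion labels it went from 0 to 1 with DESeq2 and without the pair of highest-background libraries. Ap2s1 gave −2.38 (adjusted p = 0.0558) and Cltb −2.21 (0.0596) with the block, −1.64 (0.133) and −1.28 (0.127) with the covariate, −1.71 (0.0554) and −1.61 (0.0608) with the GC trend removed, and −2.55 to −2.17 and −2.45 to −1.86 with single libraries left out.

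Signs turned for Ehd2 in Ezh2 ECKO against MCAO (0.19 with the covariate), Hdac2 in Hdac2 ECKO against MCAO (0.029 with no filter, −0.25 to 0.021 with single libraries left out), and, contralaterally, Cavin3 and Cav1. With single libraries left out, contralateral Cavin3 ranged from −0.055 to 0.95 and Cav1 from −0.022 to 0.72. The 24 fold changes examined here are those the text prints, picked after the values were seen. Of the other 52 fold changes of members, none called, 38 changed sign in at least 1 setting (113 of 834 values), the largest of them 1.35 in size. For all of these the cause was not tested.

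Whether the replicate numbers pair the libraries could not be settled. The labels do not say whether both sides came from the same mice. Same-numbered correlations of deviations between sides were 0.372, 0.349 and −0.125 in sham and 0.288, 0.381 and 0.0360 in MCAO, and ran from −0.353 to 0.403 over all group pairs. The block changed no other call among the fold changes printed. Genes called over the whole table depended on the setting: 250 (5 to 1642) in Ezh2 ECKO against MCAO, 2 (0 to 244) in Hdac2 ECKO against MCAO, 21 (3 to 659) between the deletion labels, 26 (0 to 498) in MCAO against sham over both sides, 0 (up to 74) ipsilaterally and 0 (up to 26) contralaterally, with 0 (up to 6) in the 3 comparisons of sides. RLE scaling moved the median of all genes by over 0.1 in some comparisons, from 0.17 to 0.36 in Ezh2 ECKO against MCAO and from −0.08 to −0.27 in the difference between side differences. Depth bears most on Plvap (6 to 626 counts per library), and the other members had at least 66 counts in every library.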
